A study of Mus musculus with 2 samples.

Results

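T cells that carried a transcript of Cd163l1 or Il23r were described in single-cell RNA sequencing of mouse peritoneal tumors. Cd163l1 encodes the scavenger receptor SCART1 and Il23r a chain of the interleukin 23 receptor, and both mark the type 17 branch of gamma delta T cells. Members were chosen from raw counts of unique molecular identifiers (UMIs, one for each captured transcript). A member had at least 1 UMI of Cd163l1 or Il23r, at least 1 UMI of Cd3d, Cd3e or Cd3g, no UMI of Cd4, Cd8a, Cd8b1 or Foxp3, and at most 1 UMI of the division genes Mki67 and Top2a. This rule found 103 of 15156 cells kept by quality filters, 64 in the control IgG library and 39 in the Activin A neutralizing antibody library. Because the rule used these genes, their values are given as a description and nothing is supported with them.

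Both groups were female C57BL/6 mice, 6 to 8 weeks old, whose peritoneum had been abraded before they received syngeneic p53-/-, myc, Hras ovarian cancer cells in the abdominal cavity. One group was given control IgG and the other an antibody that neutralizes Activin A, a secreted protein of the TGFβ family, each daily by intraperitoneal injection. Per the labels, tumor tissue of 7 mice (control IgG) and of 8 mice (antibody) was pooled after 10 days of treatment, so each group was 1 library without replicates. The paper gives other numbers of mice and days for its single-cell experiment, and which hold for these libraries was not settled. Antibody and any difference in handling between the 2 libraries cannot be told apart, no test between groups was possible, and mice treated with a TGFβ antibody were not analysed here. The cancer cells are an engineered line placed at a wound, all groups carried tumors, and fewer cells of a kind, fewer recovered cells and less RNA per cell cannot be told apart in the shares below.

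Gamma delta T cells carry a T cell receptor of a gamma and a delta chain in place of the alpha and beta chains of CD4 and CD8 T cells. Their type 17 branch is set up in the thymus, depends on interleukin 7, and answers interleukin 1 and interleukin 23 by releasing interleukin 17 within hours. These cells settle in skin, the uterus, fat and the peritoneal cavity, and many of them use the Vγ6 chain (Tcrg-V6 here) with a delta chain of the Trdv4 segment or the Vγ4 chain (Tcrg-V4 here). Mucosal-associated invariant T cells, natural killer T cells and innate lymphoid cells can share parts of this programme, while cytotoxic CD8 T cells and natural killer cells run the opposite, type 1 programme of interferon gamma and granzymes.

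Sequencing depth was 98174850 UMIs for control IgG and 74117462 UMIs for the antibody, and the median kept cell had 5719 and 4660 UMIs. Members were shallower, with medians of 3381.5 UMIs (range 1693 to 21640) in control IgG and 2822 UMIs (1779 to 58932) with the antibody. They were set beside 8005 other CD3 cells that were not dividing (4491 and 3514 cells, median depths 4407 and 3939.5 UMIs). Among these were 206 Trdc-positive T cells that met every other condition of the rule without a UMI of Cd163l1 or Il23r (123 and 83 cells, 3907 and 3446 UMIs), 1301 CD4 and 4143 CD8 T cells. B cells (217 and 136 cells, 2903 and 2780 UMIs) showed the background of transcripts from free RNA. Of 19 barcodes that were kept cells in both libraries, 1 belonged to a member, in the control IgG library. All 95% intervals below cover counting error only.

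Among the members, 7 stood apart by transcripts of other lineages. Marker lists of macrophages, neutrophils, dendritic cells, B cells, fibroblasts, cancer cells and muscle gave at least 10 UMIs in 5 members of the control IgG library and in 2 members of the antibody library. The highest control IgG value was 623 UMIs, 393 of them of fibroblast and 139 of neutrophil genes, in a cell of 21640 UMIs. The antibody cell of 58932 UMIs held 165 UMIs of cancer cell genes and 1459 UMIs of Spp1, which encodes osteopontin. All other members had at most 6 such UMIs in control IgG and at most 4 with the antibody. These 7 cells carried 24.8% and 37.0% of the members' UMIs, and the deepest antibody cell alone 33.2%, so summed levels in the antibody library rest in large part on 1 cell. When all CD3 cells with at least 10 such UMIs were left out, members were 1.16% and 0.896% of CD3 cells. With them they were 1.06% and 0.868%, so cells of this kind were not more frequent among members than among all CD3 cells. No doublet caller was run, and whether the 7 were doublets was not tested. The cut at 10 UMIs was set after these values were seen. Values are given for all 103 members and, where it matters, for the 96 members (59 and 37) without these cells.

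The 7 cells were chosen by the sum of the 7 marker lists, so this sum had to fall without them and the values here are a description. Taken list by list, transcripts of 5 of the 7 lists left for the most part with the 7 cells, and those of B cells and muscle did not. Fibroblast markers summed to 529 UMIs in control IgG and 9 with the antibody, led by Col3a1, and to 9 and 7 without those cells. Macrophage markers, led by Lyz2, went from 145 and 112 to 16 and 3 UMIs, and dendritic cell markers, led by Cd74, from 625 and 254 to 43 and 11. Cancer cell markers, led by Krt8 in control IgG and Dlk1 with the antibody, went from 14 and 170 to 5 and 5. Neutrophil markers, led by S100a8, all lay in 1 control IgG cell but for 1 UMI, and none was left in the 96 members. B cell markers, led by Ighm, went from 23 and 9 to 20 and 9 UMIs, and muscle markers from 16 and 6 to 14 and 6. The B cell genes Cd79a and Ms4a1 and all 4 hemoglobin genes were at 0 in every member. Of the natural killer cell list, led by Klrb1c, 7 and 4 UMIs were found in 2 members of each library, with Klra4 at 0 in both.

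**Figure D1:**
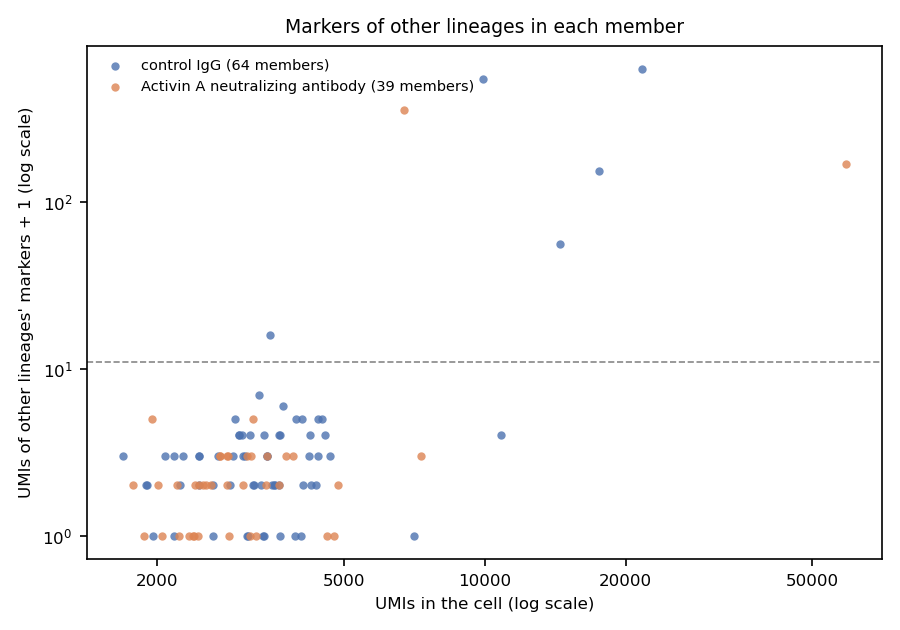
Each point is 1 member, with its total UMIs on the horizontal axis and its UMIs of marker genes of other lineages plus 1 on the vertical axis, both on log scales, in the control IgG and the antibody library. The 5 and 2 cells above the dashed line at 10 UMIs hold 24.8% and 37.0% of the members' UMIs, and the antibody cell of 58932 UMIs lies farthest to the right.

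Members made up 0.730% of kept cells in control IgG (interval 0.562 to 0.931) and 0.611% with the antibody (0.435 to 0.834). Of all CD3 cells, 6044 and 4492, they were 1.06% (0.816 to 1.35) and 0.868% (0.618 to 1.18). The antibody share was lower by 0.29 on the log2 scale among CD3 cells, with an interval of the log2 ratio from -0.90 to 0.31, so a difference in abundance was not detectable at this depth. The rule drew a narrow line. A further 105 cells had a Cd163l1 or Il23r UMI and were left out, 62 of them with a Cd8a or Cd8b1 UMI, 26 with no CD3 UMI, 22 with a Cd4 UMI, 22 as dividing cells and 1 with a Foxp3 UMI, where 27 failed more than 1 condition. Just inside the threshold, 30 members had a single UMI of the 2 genes, of which 8 held Trdc and 15 held the cytotoxic granule gene Nkg7. Among the other 73 members, 53 held Trdc and 9 held Nkg7. Just outside it, 2267 CD3 cells met every other condition with no UMI of either gene, and 9.09% of them held Trdc.

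The 2 genes of the rule were unevenly spread over members. Cd163l1 (ENSMUSG00000025461, mm10 chr7:140218267-140231145, plus strand) gave 210 UMIs in 41 control IgG members and 125 UMIs in 30 antibody members. Il23r (ENSMUSG00000049093, chr6:67422932-67491855, minus strand) gave 145 UMIs in 50 and 63 UMIs in 28 members. In 46 members both were seen, 25 had Cd163l1 alone and 32 Il23r alone.

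Promoter windows were searched for the word AGGTCA, or TGACCT read on the other strand, the core site that Rora and many other nuclear receptors bind. Rora is described among the transcription factors below. Of 19 genes looked up (the 4 marker genes, Il17a and the leading genes described below), 9 had a promoter window in the RefSeq table (build GRCm38.p6), and 4 windows of 250 bases before the start held this word on either strand: Il23r, Il17a, Igf1r and Clnk. Across all 32851 windows the share was 14.0%. Il23r and Il17a are printed because they are the receptor used by the rule and the effector gene of the type 17 programme, 5′ to 3′ on the gene's own strand, with each match in capitals. The Il23r window (chr6:67491856-67492105, minus strand) held 2 matches, 229 and 66 bases before the start, and the Il17a window (chr1:20730655-20730904, plus strand) held 1, 120 bases before the start. A match is a description of these letters and not a site of binding.
Il23r: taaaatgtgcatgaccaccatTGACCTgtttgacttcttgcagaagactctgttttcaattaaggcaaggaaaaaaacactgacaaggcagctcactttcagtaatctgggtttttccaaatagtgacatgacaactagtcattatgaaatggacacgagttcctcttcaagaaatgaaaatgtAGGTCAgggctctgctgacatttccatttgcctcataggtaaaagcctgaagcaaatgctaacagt
Il17a: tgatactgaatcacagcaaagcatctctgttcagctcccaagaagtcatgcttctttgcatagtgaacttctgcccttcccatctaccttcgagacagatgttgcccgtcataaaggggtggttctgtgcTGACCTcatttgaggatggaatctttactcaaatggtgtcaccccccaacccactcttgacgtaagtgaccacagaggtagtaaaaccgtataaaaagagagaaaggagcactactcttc

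The label of gamma delta T cells was checked on the receptor genes, which the rule did not use. Trdc (ENSMUSG00000104876, chr14:54142851-54148868, plus strand), the constant segment of the delta chain, was seen in 37 of 64 control IgG members, 57.8% (44.8 to 70.1), and in 24 of 39 antibody members, 61.5% (44.6 to 76.6). In B cells, which should lack it, the share was 0.461% and 0. The level was 617 UMIs per 1000000 UMIs of the class (CPM) in control IgG and 479 CPM with the antibody, against 21.3 and 17.6 CPM in the other CD3 cells. The libraries did not differ in this share beyond their intervals, and most members of each held delta chain transcripts.

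With the gamma constant genes added, 45 of 64 and 29 of 39 members had at least 1 UMI of a gamma or delta constant gene. Of these, 12 and 1 also held Trac, the constant gene of the alpha chain. Such a gamma or delta UMI was also seen in 11.5% and 10.5% of the other CD3 cells and in 9.16% and 6.27% of CD8 T cells. The gamma constant genes are near-identical copies, so which of them gave a read is uncertain. Tcrg-C1 was seen in 35 and 21 members, 54.7% and 53.8%, against 18.7% and 15.7% of the other Trdc-positive cells. Among variable segments, Trdv4 was found in 13 and 8 members, Tcrg-V6 in 7 and 6, and Tcrg-V4 in 3 and 1. The 28 members with a Trdv4 or Tcrg-V6 UMI all held Cd163l1, and 27 of them held Trdc. Trdv4 reached only 0.813% and 0% of the other Trdc-positive cells, and Tcrg-V6 0% and 1.20%, so the segment pair known from the Vγ6 lineage was seen in members and hardly outside them.

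Alpha chain transcripts were not absent. Trac was seen in 22 of 64 control IgG members, 34.4%, and in 6 of 39 antibody members, 15.4%, against 70.1% and 73.8% of the other CD3 cells. Trdc and Trac occurred together in 8 and 1 members. Beta chain constants were frequent, with a Trbc1 or Trbc2 UMI in 48 of 64 (75%) and 32 of 39 (82.1%) members, more than held Trdc. The same held for 90.2% and 79.5% of the other Trdc-positive cells, and for 6.91% and 6.62% of B cells, so these genes did not set members apart from other delta chain cells. Summed over their lists, alpha and beta constant genes were at 990.2 and 682 CPM in members, against 1646 and 1777 CPM in the other CD3 cells. Il7r, the interleukin 7 receptor and the remaining proposed marker, was seen in 90.6% and 94.9% of members at 1489 and 1382 CPM, against 49.0% and 40.8% of the other CD3 cells. After every cell had been thinned to 2000 UMIs, Trdc was still seen in 53.8% and 55.9% of the members deep enough to be thinned.

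**Figure D2:**
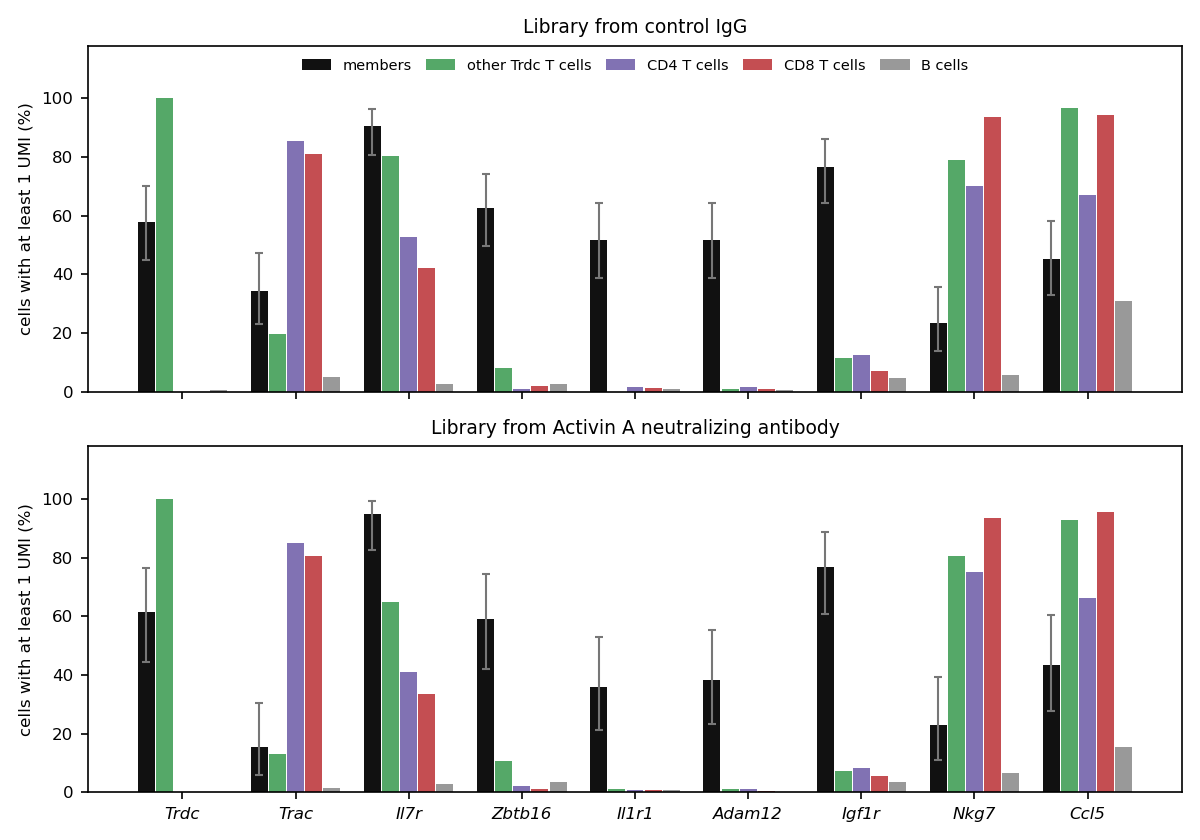
Share of cells with at least 1 UMI of each gene (percent, with exact 95% binomial intervals) in members (black) and in the comparison classes, for control IgG and the antibody, where the intervals are drawn for members and the class of other Trdc-positive cells holds Trdc by definition. Trdc reached 57.8% and 61.5% of members, and Igf1r, at 76.6% and 76.9%, was at 11.4% and 7.23% in the other Trdc-positive cells.

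The label did not hold equally for all members. Split by the 2 genes of the rule, and without the 7 cells above, 22 members had Cd163l1 alone, 45 had both genes and 29 had Il23r alone. Trdc was seen in 81.8% of the first (59.7 to 94.8) and 88.9% of the second (75.9 to 96.3). It was seen in 6.90% of the third (0.846 to 22.8), near the 11.4% of the 1726 cells with neither gene that were left after the same limit on transcripts of other lineages. Among all 103 members the counts were 18 of 25, 41 of 46 and 2 of 32. Trac went the other way, at 27.3%, 13.3% and 44.8%, against 57.2% of cells with neither gene. The gamma constant gene Tcrg-C1 was seen in 59.1%, 77.8% and 24.1% (10.3 to 43.5 in the third), against 5.45% of cells with neither gene and 18.7% and 15.7% of the other Trdc-positive cells. For the members with Il23r alone, Trdc and Trac therefore go against the name gamma delta T cell while Tcrg-C1 does not, and the name is not settled by these genes. The whole set is called Cd163l1 or Il23r T cells here, and the Il23r-only cells are given no cell type name.

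The programme of these 3 subsets differed as well, in genes that were chosen for this comparison after their values had been seen. Zbtb16, which encodes PLZF, the factor of innate-like T cells, was found in 40.9% of Cd163l1-only, 66.7% of double and 72.4% of Il23r-only members, against 4.63% of cells with neither gene. Thus the Il23r-only members, which mostly lacked Trdc, had a share of Zbtb16 well above that of cells with neither gene. Blk, a kinase of the Src family known from B cells and from gamma delta cells that make interleukin 17, separated the double members, at 60.0%, from Cd163l1-only (9.09%) and Il23r-only members (17.2%). Il1r1, the interleukin 1 receptor, was at 36.4%, 53.3% and 44.8%.

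Genes of the type 1 side did not follow one order over the subsets. Nkg7 was seen in 54.5% of Cd163l1-only members, in 4.44% of double members and in 27.6% of Il23r-only members. Tbx21, the type 1 transcription factor, was at 18.2%, 8.89% and 27.6%, highest in Il23r-only members. Ly6c2, a surface protein of memory and cytotoxic T cells, was at 36.4%, 4.44% and 6.90%. Pdcd1, which encodes the checkpoint receptor PD-1, was most frequent in double members, at 75.6%, against 40.9% and 10.3%. The gene 5830411N06Rik, which encodes SCART2, a relative of SCART1, was seen in 8 of 29 Il23r-only members (27.6%), in 4.44% of double members and in no Cd163l1-only member. Trav11 and Trav1, the alpha chain segments used by natural killer T cells and mucosal-associated invariant T cells, were at 0 UMIs in all members, so the alpha chain cells could not be assigned to either from these genes.

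**Figure D3:**
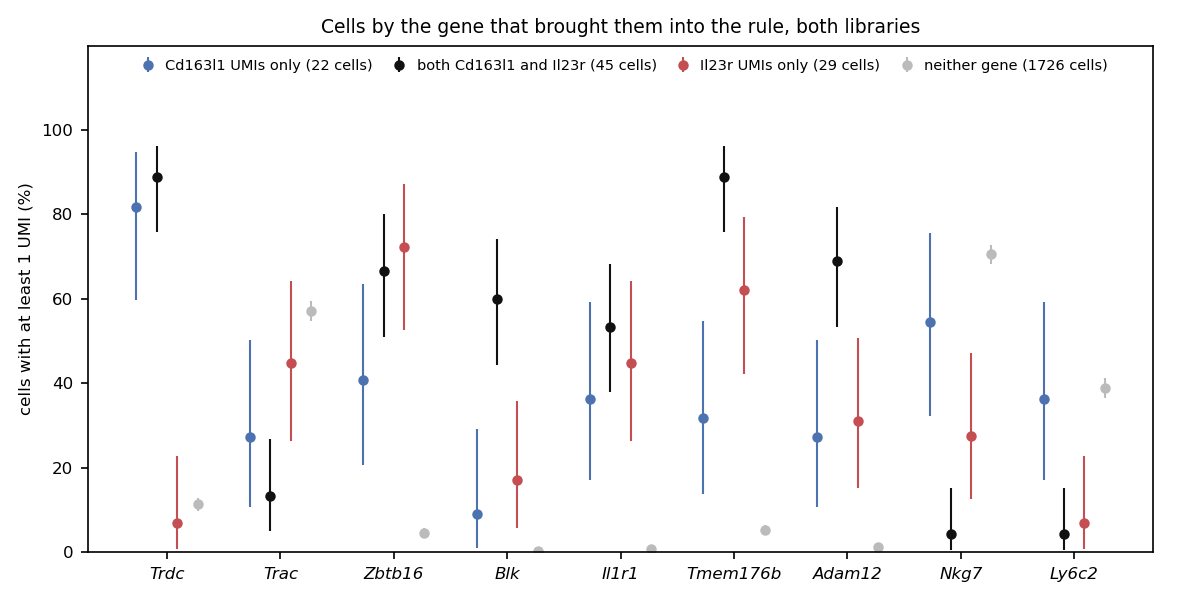
Share of cells with at least 1 UMI of each gene (percent, exact 95% binomial intervals), both libraries together and without the 7 cells rich in other transcripts, for 22 Cd163l1-only, 45 double and 29 Il23r-only members and for cells with neither gene. Trdc is at 6.90% in Il23r-only members, where Zbtb16 stands at 72.4%.

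Members were then set against the other non-dividing CD3 cells within each library. A gene was counted as higher or lower where its level differed at least 2-fold in the same direction in both libraries, among genes with at least 30 UMIs in members, or expected from the other cells. Of 3232 genes, 115 (3.56%) were higher and 80 (2.48%) were lower. The transcription factors of the type 17 programme, a list that also holds the kinase Blk, were 4 higher and 1 lower of 9 tested. Its receptors were 4 higher and none lower of 5, and its cytokines were 1 higher of 3. Together this was 9 higher and 1 lower of 17, against the background of 3.56% and 2.48%, on lists that were themselves chosen for cells of this kind.

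Zbtb16 was seen in 40 and 23 members, 62.5% and 59.0%, at log2 ratios of 4.59 and 4.40, against 8.13% and 10.8% of the other Trdc-positive cells. Blk was seen in 21 and 14 members with log2 ratios of 6.54 and 6.68, and B cells, which use this kinase, held it at 56.7% and 59.6%.

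Rora, a nuclear receptor of type 17 cells, was broader, in 51 and 26 members, and its log2 ratios were 1.84 and 1.12. Maf, a regulator of interleukin 17 producing gamma delta cells, was seen in 25 and 13 members with log2 ratios of 0.94 and 0.65, under the 2-fold line. Sox13, a factor of their development in the thymus, was too rare for the count, with 8 and 3 UMIs. Batf, a factor that many activated T cells use, was the 1 lower gene of the list, at 25.9 and 39.5 CPM against 97.9 and 124 CPM.

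Of the receptors, Il1r1 was seen in 33 of 64 and 14 of 39 members at 318 and 203 CPM, against 28.1 and 20.1 CPM in the other CD3 cells. A single control IgG cell held 30 of its 86 UMIs. Il18r1, the interleukin 18 receptor, was found in 55 and 30 members with log2 ratios of 1.64 and 1.16, and 68.3% and 61.4% of the other Trdc-positive cells held it too. Il2ra, the high-affinity chain of the interleukin 2 receptor, had log2 ratios of 2.20 and 2.38. Il17re, the receptor for interleukin 17C, was at 7 and 9 UMIs in 7 and 8 members, under the minimum for the count, and at 0 in the other Trdc-positive cells. Ccr6, the chemokine receptor of type 17 cells, was at 0 UMIs in control IgG and 2 UMIs with the antibody, so it was close to undetected in members at this depth.

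The effector cytokine was rare. Il17a, which encodes interleukin 17A, gave 29 UMIs in 5 of 64 control IgG members, 14 of them in 1 cell and 8 in the next, and 1 UMI in 1 of 39 antibody members. The levels were 107 CPM (71.8 to 154) and 5.64 CPM (0.143 to 31.4), against 0.0758 and 0.114 CPM in the other CD3 cells. The log2 ratio of antibody over control IgG was -4.25 (-9.60 to -1.66), and without the 7 cells -3.04 (-8.44 to -0.34). The cell with 14 Il17a UMIs was 1 of these 7, so the second ratio leaves it out. It had 3477 UMIs in all, 15 of them of other lineages' markers, 9 of Cd163l1, 12 of Il23r and 3 of Trdc. The UMIs of 1 cell are not independent, so these intervals are too narrow for a gene held by 6 cells in all. All 4 control IgG cells and the antibody cell left after those 7 were removed held Cd163l1, and 4 of them held both genes of the rule. Il17f gave 0 and 1 UMIs and Il22 none, and all but 1 of the 29 antibody UMIs of Areg, which encodes amphiregulin, lay in 1 cell.

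The genes highest over the other CD3 cells also included some outside the lists. Igf1r, the receptor of insulin-like growth factor 1, was seen in 49 of 64 and 30 of 39 members, at 964 and 1026 CPM against 51.1 and 47.4 CPM, with log2 ratios of 4.24 and 4.44. In the other Trdc-positive cells it reached 11.4% and 7.23%, and in B cells 4.61% and 3.68%. Adam12, a membrane metalloprotease, was seen in 33 and 15 members with log2 ratios of 4.70 and 4.74, and in 0.813% and 1.20% of the other Trdc-positive cells. Both genes were seen more often in members than in any comparison class named here.

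Mmp25, a membrane-anchored matrix metalloprotease, was seen in 20 and 10 members with log2 ratios of 5.10 and 4.60. Pard3, a scaffold of cell polarity, had 3.59 and 4.14, and Pde5a, a phosphodiesterase that degrades cyclic GMP, 4.09 and 3.85. Ablim3, an actin-binding protein, had 6.29 and 4.35, and Zfp462, a zinc finger protein, 4.34 and 4.22. Xkr6, a membrane protein, had 3.39 and 3.60. Each of the genes in these sentences had UMIs in at least 7 members of the antibody library and at least 15 of the control IgG library. Clnk, an adaptor of immune receptor signalling, had log2 ratios of 4.35 and 3.34, but 29.3% and 25.3% of the other Trdc-positive cells held it, so it was shared with the rest of the delta chain cells.

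Of the scavenger receptor and innate surface genes, 4 of 10 tested were higher and 2 lower, against 3.56% and 2.48% of all genes tested. Tmem176a and Tmem176b, neighbouring genes of membrane channels, were found in 43 and 26 and in 47 and 25 members, with log2 ratios of 3.04 and 3.16, and 2.51 and 2.85. Macrophages and dendritic cells express this pair as well. Tmem176b was seen in 9.68% and 6.62% of B cells and in 42 of 59 and 23 of 37 members without the 7 cells rich in other transcripts, and the part of other cells' transcripts in its level was not tested. Actn2, an actin cross-linker, had log2 ratios of 2.90 and 1.08, and Serpinb1a, a serine protease inhibitor, 2.28 and 2.0.

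**Figure D4:**
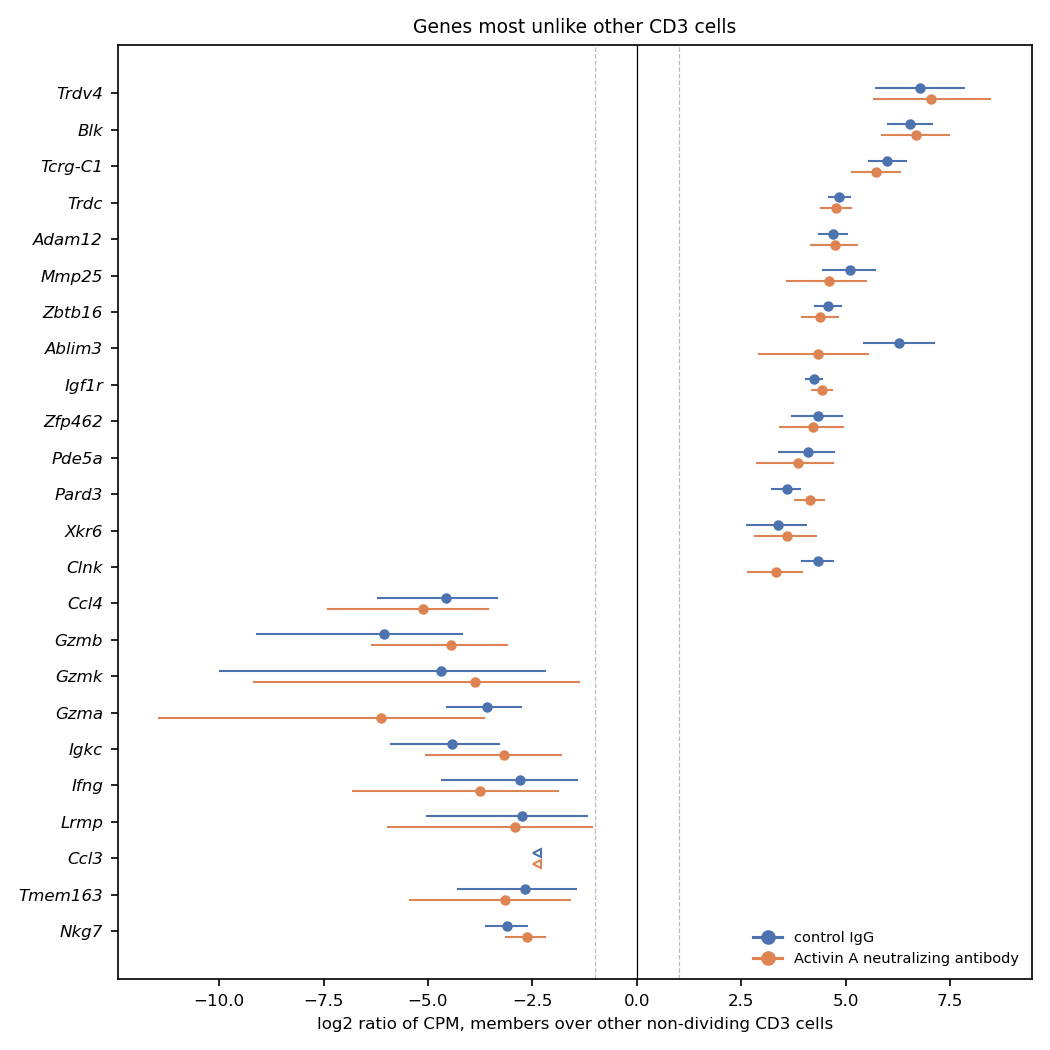
Log2 ratio of CPM in members over the other non-dividing CD3 cells for the named genes, in control IgG and with the antibody, with 95% intervals that cover counting error only; dashed lines mark 2-fold, and open triangles mark the upper limit of a gene with 0 UMIs. Trdv4 lies at 6.78 and 7.04, and Gzmb at -6.05 and -4.46.

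The lowest genes were those of the cytotoxic programme. Of 10 type 1 and cytotoxic genes tested, none was higher and 7 were lower, against the same 3.56% and 2.48% of all genes tested. Gzmb, which encodes granzyme B, gave 2 and 4 UMIs in members, 7.39 and 22.6 CPM against 488 and 495 CPM. Nkg7 was seen in 15 and 9 members, 23.4% and 23.1%, against 77.3% and 82.5% of the other CD3 cells and 78.9% and 80.7% of the other Trdc-positive cells. Nkg7 was thus less frequent in members than in either class, although 42 of the 103 members held no Trdc UMI. Ifng, which encodes interferon gamma, gave 4 and 2 UMIs, with log2 ratios of -2.80 and -3.75.

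Gzma, the gene of granzyme A, gave 12 UMIs in control IgG, all in 1 cell, and 1 with the antibody, and Gzmk 1 UMI in each library. The chemokine gene Ccl4 gave 5 and 3 UMIs, with log2 ratios of -4.56 and -5.12. Its neighbour Ccl3 gave 0 UMIs in both libraries, which allows up to 13.6 and 20.8 CPM, against 71.1 and 109 CPM in the other CD3 cells. Lrmp, a membrane protein of the endoplasmic reticulum, and Tmem163, a zinc transporter, completed the lowest genes, together with Igkc, an immunoglobulin gene of B and plasma cells. Several of these genes mark CD8 T cells, which were 4143 of the 8005 comparison cells and which the rule kept out of the members by Cd8a and Cd8b1.

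Among checkpoint and costimulation genes, none was higher and 3 of 7 were lower, against 3.56% and 2.48% of all genes tested, which are also the background shares for the survival, traffic and interferon lists. Lag3 gave 0 UMIs in both libraries against 53.2 and 91.3 CPM in the other CD3 cells, and Havcr2, which encodes TIM-3, gave 2 and 1. Pdcd1, one of the 4 that were not lower, was seen in 31 and 16 members, 48.4% and 41.0%, with log2 ratios of 1.17 and -0.02. The antibody value is lowered by the 2 antibody cells rich in other transcripts. They held 37.0% of the members' UMIs in that library and no Pdcd1 UMI. Pdcd1 was seen in 6.50% and 9.64% of the other Trdc-positive cells. Members therefore held PD-1 transcripts, with no Lag3 UMI found at this depth and little Havcr2. A count of 0 UMIs limits the level of Lag3 and does not show its absence. Of 8 genes of survival and cell death, 1 was higher, Bcl2, an inhibitor of cell death, with log2 ratios of 1.17 and 1.16. Immediate-early and heat shock genes (15 tested) and glycolysis genes (8 tested) had none past 2-fold in either direction in both libraries, traffic genes had 1 lower of 12, and interferon-stimulated genes 1 lower of 8.

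Activin A signals through type II receptors, Acvr2a and Acvr2b, and the type I receptors Acvr1b and Acvr1c, to Smad2 and Smad3. Of 19 genes of the activin and TGFβ pathways, 11 were tested, 1 was higher in members and none was lower, which is close to the background of 3.56% and 2.48% and is no result about the list. The higher gene was Acvr2a, with 22 UMIs in 15 control IgG members and 16 UMIs in 10 antibody members. This was 81.3 and 90.2 CPM, against 27.4 and 20.9 CPM in the other CD3 cells, with log2 ratios of 1.57 and 2.11. Its partner Acvr1b was near the floor, with 2 and 4 UMIs. Smad2 had log2 ratios of 0.63 and 1.25 and Smad3 of 0.71 and 1.08, while Tgfbr2, the type II receptor of TGFβ, had -0.06 and -0.41. In the antibody library 1 cell held 51 of the list's 242 UMIs, led by Smad3, and 185 were left without the 7 cells. The part of single cells in the antibody values of Smad2 and Smad3 was not tested. Inhba, the subunit of Activin A itself, gave 0 UMIs in control IgG, and its 3 antibody UMIs all lay in 1 cell, one of the 7 rich in other transcripts.

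The antibody library was compared with control IgG within the members. Over all 103 members, 2943 genes had at least 30 UMIs, 138 of them (4.69%) were at least 2-fold higher with the antibody and 229 (7.78%) were at least 2-fold lower, around a median log2 ratio of -0.12. Without the 7 cells rich in other transcripts, 2088 genes were left, 34 (1.63%) higher and 70 (3.35%) lower, around a median of -0.01. Of the higher genes 10, and of the lower genes 47, were past 2-fold in both sets. The second set also tests fewer genes, since fewer UMIs were left.

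Without the 7 cells the type 17 lists were near level between the libraries. In all members the joined type 17 lists had a median log2 ratio of -0.43 over 15 genes. Of these 1 was higher and 2 lower, against 4.69% and 7.78% of all genes tested. Without the 7 cells the median was 0.04 over 12 genes, 1 higher and none lower, against 1.63% and 3.35%. Such small counts are no result about the lists. Summed over its genes, the transcription factor list had a log2 ratio of -0.45 in all members and -0.12 (-0.29 to 0.04) without those cells. The receptor list moved from -0.29 to 0.11 and the gamma delta receptor genes from -0.18 to 0.12 (-0.16 to 0.40). The activin and TGFβ pathway list was at 0.01 and 0.20, and Acvr2a at 0.15 (-0.88 to 1.15) in all members.

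Several list sums changed sign without the 7 cells, such as those of the type 17 receptors and the gamma delta receptor genes above, and the glycolysis list did so as well. Over all members its 10 genes summed to 3595 CPM in control IgG and 5938 CPM with the antibody, a log2 ratio of 0.72 (0.60 to 0.85). Without the 7 cells the sums were 2765 and 1558 CPM, a log2 ratio of -0.83 (-1.08 to -0.58), and 4 of 7 genes tested were lower, against 3.35% of all genes tested in this set. The other CD3 cells, from which no cells rich in other transcripts were left out, were also lower with the antibody, at 4215 against 5868 CPM. Pgk1, phosphoglycerate kinase, was one of these genes. A single antibody cell held 106 of its 113 UMIs. Without the 7 cells Pgk1 was seen in 24 of 59 control IgG and 5 of 37 antibody members, with a log2 ratio of -2.22 (-3.73 to -1.0). The other CD3 cells, again with none left out, had -0.53. Aldoa, Pkm and Tpi1, 3 more enzymes of the pathway, had -1.09, -1.35 and -1.22 without the 7 cells, against 0.82, 0.37 and 0.84 with them.

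The size of the difference in the type 1 and cytotoxic list depended on which cells were left out. Its summed log2 ratio was 0.12 (-0.07 to 0.30) over all members and 1.25 (1.04 to 1.46) without the 7 cells, at 1591 and 3787 CPM. When cells with a UMI of Cd79a, Lyz2, C1qa, Csf3r, Col1a1 or Krt18 were left out in their place, the ratio was 0.11 (-0.11 to 0.32), and it was 0.05 with at most 5% mitochondrial UMIs, 0.70 without the deepest 5% of kept cells and 1.40 with at least 2 UMIs of the rule genes. No single size can be given for this list. Most of its sum was Ccl5, a chemokine of memory and cytotoxic T cells. Ccl5 was seen in 29 of 64 and 17 of 39 members, and 231 of its 436 control IgG UMIs lay in 1 of the 7 cells. Without them, 25 of 59 and 17 of 37 members held it, at 849.7 and 2579 CPM, with a log2 ratio of 1.60 (1.32 to 1.88), and 1 antibody cell held 98 of the 288 UMIs. The next antibody cell held 60 UMIs, and the highest control IgG cells held 41 and 39. At least 5 UMIs were seen in 8 control IgG and 6 antibody members. The shares of cells with Ccl5 were therefore close, and much of the difference lay in a few antibody cells. Nkg7 had a log2 ratio of 0.73 (0.03 to 1.42), and 0.98 without the 7 cells, where 14 and 8 members held it.

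**Figure D5:**
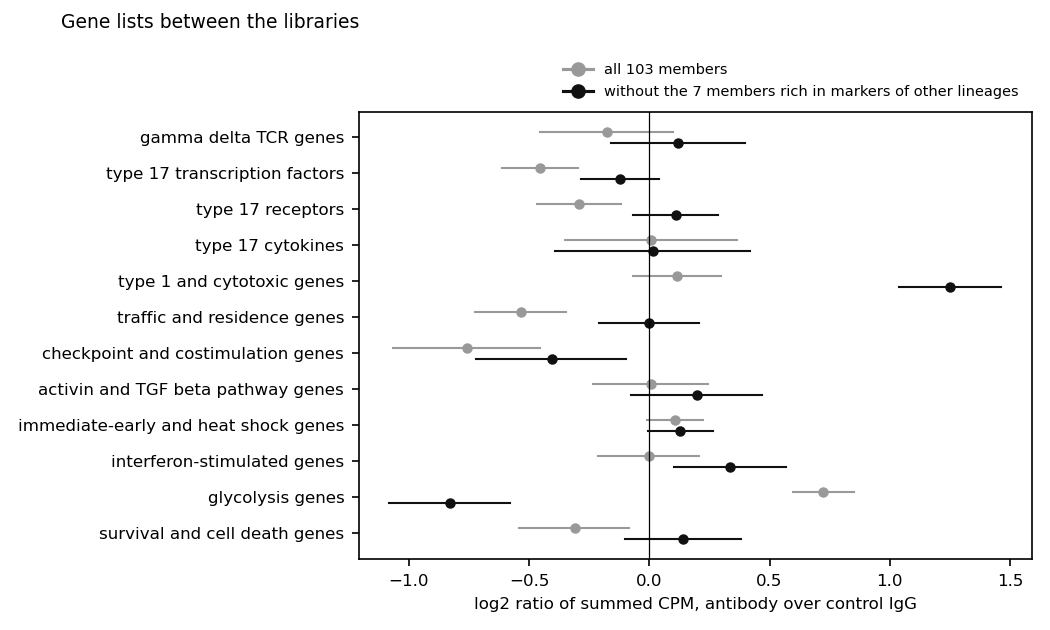
Summed log2 ratio of CPM, antibody over control IgG, for each gene list in all 103 members (grey) and without the 7 cells rich in transcripts of other lineages (black), with 95% intervals that cover counting error only. Glycolysis genes turn from 0.72 to -0.83, and type 1 and cytotoxic genes go from 0.12 to 1.25.

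Among single genes, some of those highest with the antibody moved far without the 7 cells and others did not. The gene highest with the antibody, Spp1, gave 15 UMIs in control IgG and 1470 with the antibody, 1459 of them in the deepest cell, and its log2 ratio went from 7.22 to 0.49 (-0.86 to 1.79) without the 7. Egr1, an immediate-early factor, went from 2.29 to 0.45, and Mif, a cytokine that tumor cells also release, from 1.61 to -0.86. Nedd4, a ubiquitin ligase, went from 1.63 to 0.54, Ank, a pyrophosphate transporter, from 2.37 to 1.21, and Cdk6, a kinase of the cell cycle, from 2.38 to 1.45. Ank and Cdk6 thus stayed past 2-fold, with wide intervals (-0.03 to 2.50 and 0.32 to 2.64). For each of these 6 genes a single antibody cell held most of the antibody UMIs.

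Other genes held their difference. Jaml, a junctional adhesion protein known for its part in the activation of gamma delta T cells of the skin, was seen in 11 of 64 control IgG and 13 of 39 antibody members, with a log2 ratio of 1.61 (0.64 to 2.65), and 1.87 without the 7 cells. Mrpl30, a protein of the mitochondrial ribosome, had 1.56 and 1.49, and Eid1, an inhibitor of differentiation, 1.86 and 2.19. Of the genes lowest with the antibody, Slc30a7, a zinc transporter of the Golgi, was seen in 24 and 4 members with -2.20 (-4.17 to -0.68), and -2.13 without those cells. In the other CD3 cells, with none left out, Jaml had a log2 ratio of 0.59 and Slc30a7 of -0.04.

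The remaining lowest genes were nearer to 0 without the 7 cells. Rel, a subunit of NF-κB, went from -2.78 to -1.27 (-3.03 to 0.17), and 24 of its 63 control IgG UMIs lay in 1 cell. Traf1, an adaptor of TNF receptors, went from -2.17 to -1.23, Bcl2a1d, of the Bcl2 family of survival genes, from -2.76 to -1.64, and Trafd1, a brake on innate signalling, from -2.20 to -1.04. Eml6, Gpd2, Spint2, Rab11fip1 and Rnf130 were between -3.01 and -2.20 in all members and between -1.80 and -0.36 without those cells. The UMIs behind each of these ratios were few, at most 7 in the antibody library.

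Genes were ranked anew without the 7 cells, after the values had been seen, and the lowest then included Pgk1, Hif1a, Cd69, Gadd45b and Ern1. Hif1a, the oxygen-sensitive transcription factor, was seen in 30 of 59 control IgG and 8 of 37 antibody members, with a log2 ratio of -1.80 (-3.0 to -0.77), where the other CD3 cells had 0.18. Cd69, an early marker of activation and of tissue residence, was seen in 22 of 59 and 6 of 37, with -1.58 (-2.79 to -0.54) against 0.28 in the other CD3 cells. For both genes the other CD3 cells include those rich in other transcripts, so members and comparison cells were not limited alike. Gadd45b, a stress-induced gene, had -1.94 (-3.47 to -0.70) and Ern1, a sensor of the unfolded protein response, -1.81 (-3.09 to -0.72). On the higher side Vamp8, a protein of granule fusion, had 2.07 (0.94 to 3.30), in 9 of 59 and 16 of 37 members. Each of these values rests on 1 library per group, and whether it follows the antibody was not tested.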

How the data were processed

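Single-cell RNA sequencing was analysed from 2 libraries, control IgG and Activin A neutralizing antibody, assigned by their labels. As deposited by the authors, values are raw UMI counts for 32285 genes and 1484815 and 1316737 barcodes, with no filter or normalization. The submitters' processing notes name Cell Ranger 7.0.1 and build mm10, the file headers Cell Ranger 4. Identifiers were matched to GENCODE M21 (99.6%) for positions.

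Cells were kept if they had between 1000 and 8500 genes, between 1000 and 100000 UMIs and no more than 10% UMIs from mitochondria. Counts were summed over cells and scaled to CPM. CPM has exact Poisson, shares have exact Clopper-Pearson and log2 ratios conditional binomial 95% intervals, which cover counting error only and treat UMIs of 1 cell as independent. With 1 library per group there was no test, and p-values were not computed. A gene was counted past 2-fold among genes with at least 30 UMIs, a library at 0 set to 3 UMIs. The computation was tested on simulated data. Barcodes under 100 UMIs held 6.39% and 6.23% of UMIs (free RNA).

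Named genes were those of the lists, the 15 highest and 10 lowest over the other CD3 cells (by the less extreme library) and the 10 highest and lowest between libraries, with UMIs in at least 10 members where higher, without mitochondrial, ribosomal and rule genes. Some genes that meet this rule are not reported here. Members, lists and rules were chosen with earlier results of these data known. No doublet caller was run. Python 3.11.15, numpy 2.4.6, scipy 1.17.1, pandas 2.3.3 and matplotlib 3.10.9 were used.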

Additional observations from a re-analysis of the deposited data

How the results depend on the processing

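No paired analysis was possible because the 2 groups were sequenced as 1 library each, which also left no replicate to leave out. Across 161 recomputed values, 112 kept their direction and size, 39 moved and 10 changed sign. The log2 ratio of the members' share kept its sign under all 7 alternatives that apply to it. With at least 2 UMIs of Cd163l1 and Il23r required, the control IgG share was 0.502% of kept and 0.728% of CD3 cells, Trdc reached 70.5% of control IgG members, Il17a 173 CPM, and 58 and 87 genes were 2-fold higher and lower with the antibody. With a Trdc UMI required, the shares were 0.422% and 0.376% of kept and 0.612% and 0.534% of CD3 cells, Il17a stood at 249 and 0 CPM, and 18 and 51 genes were past 2-fold. Without cells holding a UMI of Cd79a, Lyz2, C1qa, Csf3r, Col1a1 or Krt18, the control IgG share was 1.06% of kept cells, Il17a 69.6 CPM and the counts 43 and 76. Without the deepest 5% of kept cells, 83 genes were higher. Without the cells rich in other transcripts the counts were 34 and 70. Minimums of 10 and 100 UMIs gave 643 and 825, and 16 and 31 genes between libraries, and 296 and 159, and 35 and 29 over the other CD3 cells. Without the member with most Il17a UMIs in each library, chosen after the values were seen, Il17a was at 56.1 and 0 CPM. The median log2 ratio of the type 17 lists, -0.43, became 0.062 with 2 UMIs of the rule genes, 0.089 without the deepest cells, 0.12 without cells holding those 6 genes, 0.042 without the cells rich in other transcripts and -0.028 as a mean over cells. The summed glycolysis log2 ratio, 0.72, became -1.0 with 2 UMIs of the rule genes, -0.53 with Trdc required, -1.11 without the deepest cells, -0.77 without cells holding the 6 genes, -0.45 as a mean over cells and -0.83 without the cells rich in other transcripts. In each of these glycolysis alternatives the antibody cell of 58932 UMIs is left out or has no more weight than any other member. The other causes were not tested. At median depths of 3381.5 and 2822 UMIs, a gene at 0 in 39 cells may still be expressed.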

Other observations

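Of 7 type 2 genes none was tested, and the list, led by Gata3, summed to 51.7 CPM in control IgG members and 84.6 CPM in antibody members, against 64.9 and 87.9 CPM in the other CD3 cells, with Il4, Il5 and Il13 at 0 UMIs in all members. Of 10 genes of lipid uptake and oxidation 3 were tested, of 10 cell division genes 4, and none of them was past 2-fold in both libraries. Of 7 markers of innate lymphoid cells 3 were tested and 2 were higher, 1 of them Il2ra, which is in the type 17 receptor list as well. Of all genes tested 3.56% were higher and 2.48% lower in both libraries, which is the background for each of these counts. Muscle markers summed to 59.1 and 33.8 CPM in members and to 119.8 and 57.9 CPM in the other CD3 cells, with none tested. Hemoglobin genes were at 0 in members.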
